A study of Mus musculus with 6 samples.

Results

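The contractile genes of myoepithelium were followed in RNA from whole mouse lacrimal glands, the glands that secrete the watery part of tears. The 10 genes were taken by symbol, for their place in the smooth muscle contractile machinery and with no threshold on a measured value. The choice was made with earlier results of these data known. They were the thin filament genes Acta2, Actg2 and Tpm2, the actin-binding genes Cnn1 and Tagln, and the myosin genes Myh11 and Myl9. The rest were the myosin light chain kinase gene Mylk, the oxytocin receptor gene Oxtr and the caveolin gene Cav1. All 10 were found among the 50686 genes of the count table, and 8 of them were among the 13178 genes with enough counts to be tested. Actg2 and Oxtr had too few counts.

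The 6 libraries formed 2 groups of 3 biological replicates, all from adult mice 13 weeks old with the strain label C57BL/6. The wild-type group is titled Blacky in the labels. The other group is titled Tabby and has the genotype Eda-/-, a body-wide loss of the TNF-type signalling protein ectodysplasin A, which hair follicles, teeth and several exocrine glands need in order to form. No treatment is named for either group, and the labels do not say whether the mice were littermates. Library totals ran from 11894395 to 15700899 counts. The groups also stood apart in the number of genes with a count, 24637 to 26240 in wild-type (highest in wild-type 3) and 21897 to 22416 in Eda-/- libraries. The 10 most abundant genes held 48.1% to 49.9% of counts in wild-type and 54.4% to 55.1% in Eda-/- libraries; the part of this in the fall of the contractile genes was not tested. As a check of the genotype labels, counts of Eda were 41, 48 and 42 in wild-type 1, 2 and 3, against 2, 0 and 0 in Eda-/- 1, 2 and 3.

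Myoepithelial cells are flattened epithelial cells that lie between the secretory acini and the basement membrane and squeeze secretion towards the ducts. They carry the keratins of basal epithelium and, unlike other epithelia, the actin, myosin and regulatory proteins of smooth muscle. Their contraction follows the smooth muscle route, in which a hormone or transmitter raises calcium, calmodulin activates the kinase encoded by Mylk, and phosphorylation of the light chain encoded by Myl9 lets the Myh11 motor pull on actin. Pericytes and the smooth muscle of blood vessels use many of the same genes.

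Every tested contractile gene had a fold change below 0 in Eda-/- glands, and 3 of the 8 were called lower: Mylk, Cnn1 and Myh11. None was called higher by edgeR, and none was called higher by DESeq2 or limma-voom; no member had a fold change above 0, so the count at an unadjusted p under 0.05 in that direction was also 0. Over all tested genes 6.90% were called lower and 6.21% higher at an adjusted p under 0.05 (edgeR's quasi-likelihood test with Benjamini-Hochberg adjustment, two-sided). The median log2 fold change of the 8 genes was -0.48, against 0.003 over all tested genes. Every Eda-/- library lay below every wild-type library for 6 of the 8 genes, an arrangement found for 16.2% of all tested genes. The summed level of the 10 genes, in CPM (counts scaled to library size with TMM normalisation, which corrects for differences in RNA composition), ran from 151.3 to 202.7 in wild-type glands and from 112.8 to 136.1 in Eda-/- glands. In RNA from a whole gland, fewer cells of a type and less RNA per cell cannot be told apart.

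Wild-type 3 was the highest wild-type library for 7 of the 8 tested genes, Cav1 being the exception, and for 36.3% of all tested genes. Without wild-type 3, the median of the 8 genes was -0.22 and 1 gene, Mylk, was called. The order of the genes by fold change and the place of wild-type 3 are seen in the plot of fold changes with and without single libraries.

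**Figure D1:**
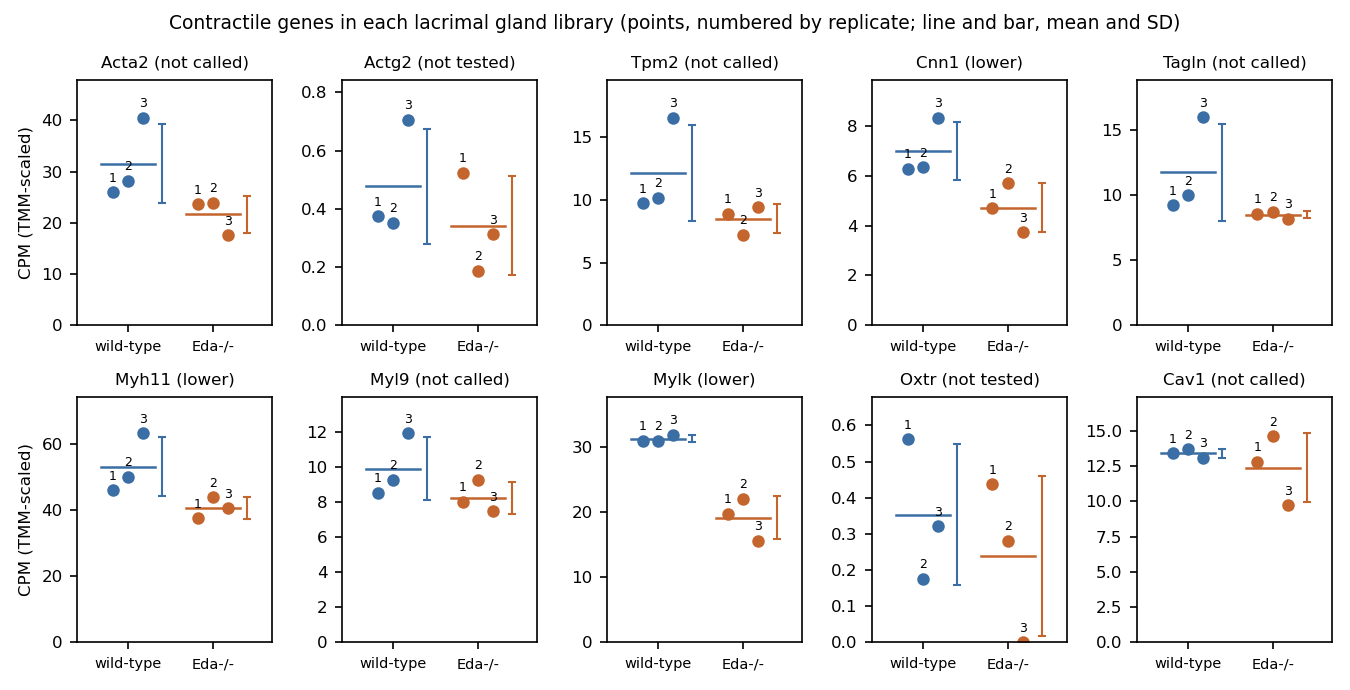
Scaled CPM (vertical axes, linear, from 0) of the 10 contractile genes in each library, with replicate numbers beside the points, group means as lines and SD (n = 3) as bars. Mylk is tight in wild-type glands, at 31.05 to 31.97 CPM, and at most 22.12 CPM in Eda-/- glands, whereas Acta2, Tpm2 and Tagln have a wild-type 3 library well above the other wild-type libraries.

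Smooth muscle genes are classic targets of serum response factor, which binds a short element known as the CArG box. RefSeq promoter windows (GRCm38.p6) were held for 7 of the 10 genes, in 8 windows, and the 250 bases upstream of each start were searched on both strands. A strict CArG box was found in 1 of the 7 genes, Myl9, and in 482 of 32851 promoters of the table (1.47%). With 1 G or C allowed in the core, matches were found in 2 genes, Myl9 and Acta2, and in 2823 promoters (8.59%). In Myl9 the matches began 161 and 99 bases upstream of the start, the first of them strict, and in Acta2 they began 84 and 34 bases upstream. No match lay in the windows of Tpm2, Cav1, Oxtr, Cnn1 or Mylk, which says only that these letters are not in those bases. A match is a description of letters and not a shown binding site. The stretches below are from Myl9 (chr2:156775260-156775419, plus strand) and Acta2 (chr19:34255438-34255467 and chr19:34255388-34255417, minus strand), the genes with matches, in capitals, and from Cnn1 (chr9:22099056-22099215, plus strand) and Mylk (chr16:34784761-34784920, plus strand, upstream of a start inside the annotated span of the gene), the genes called lower for which a window was held.
Myl9: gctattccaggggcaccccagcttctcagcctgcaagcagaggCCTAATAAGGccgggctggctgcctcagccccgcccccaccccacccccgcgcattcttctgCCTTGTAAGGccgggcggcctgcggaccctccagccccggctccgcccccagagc
Acta2, upstream match: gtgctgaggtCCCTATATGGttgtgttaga
Acta2, downstream match: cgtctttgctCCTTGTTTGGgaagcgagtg
Cnn1: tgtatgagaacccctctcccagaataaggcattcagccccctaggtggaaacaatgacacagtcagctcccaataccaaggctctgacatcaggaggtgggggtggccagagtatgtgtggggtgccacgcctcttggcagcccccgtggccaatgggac
Mylk: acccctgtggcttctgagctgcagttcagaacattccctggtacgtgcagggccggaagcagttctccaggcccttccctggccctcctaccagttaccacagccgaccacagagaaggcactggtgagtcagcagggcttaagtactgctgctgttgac
The pieces of Myl9, Cnn1 and Mylk hold no annotated exon, and those of Acta2 lie in an annotated exon. The genes with matches, Myl9 and Acta2, were not called in edgeR, though Acta2 passed in DESeq2. Of the 3 genes called lower, the windows of Cnn1 and Mylk held no match, and no window was held for Myh11. The part of serum response factor in the fall of these genes was not tested.

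The thin filament genes came first. Acta2 (ENSMUSG00000035783.8, GRCm38 chr19:34241090-34255590, minus strand) encodes the alpha actin of smooth muscle, the protein most often stained to see myoepithelium. Its level was 26.0, 28.23 and 40.5 CPM in wild-type 1, 2 and 3 and 23.66, 23.9 and 17.54 CPM in Eda-/- 1, 2 and 3. The groups did not overlap, but wild-type 3 stood 1.49 times above the mean of the other wild-type libraries, and the highest Eda-/- library lay close below the lowest wild-type one. The means were 31.6 ± 7.81 and 21.7 ± 3.6 CPM (SD, n = 3), and the log2 fold change was -0.54 (SE 0.20). This did not pass in edgeR (adjusted p = 0.142) and passed in DESeq2 (adjusted p = 0.0262). Without wild-type 3 the log2 fold change was -0.32.

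Tpm2 (ENSMUSG00000028464.16, chr4:43514711-43523765, minus strand) encodes beta tropomyosin, which lies along the actin filament. It had 9.73, 10.2 and 16.6 CPM in wild-type and 8.91, 7.22 and 9.43 CPM in Eda-/- libraries. The pattern was that of Acta2: no overlap, with wild-type 3 far above the other wild-type libraries. The log2 fold change of -0.50 (SE 0.22, edgeR adjusted p = 0.18) did not pass and was -0.21 without wild-type 3. Actg2 (ENSMUSG00000059430.14, chr6:83512905-83536265, minus strand), the gamma actin of visceral smooth muscle, was counted 6, 6 and 11 times in the wild-type libraries; in the Eda-/- libraries it was counted 6, 2 and 4 times. These overlapped, and the ratio of scaled counts, Eda-/- over wild-type, was 0.726 (95% interval 0.329 to 1.52, exact binomial, covering counting error only). A difference in Actg2 was not detectable at this depth.

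Cnn1 and Tagln encode calponin and transgelin, which bind actin and mark mature smooth muscle. Cnn1 (ENSMUSG00000001349.5, chr9:22099216-22109630, plus strand) had 6.30, 6.35 and 8.35 CPM in wild-type and 4.72, 5.72 and 3.74 CPM in Eda-/- libraries. All Eda-/- libraries were below all wild-type libraries, and Eda-/- 3 was the lowest. Cnn1 fell by 0.57 on the log2 scale (SE 0.18), from 6.998 ± 1.17 to 4.72 ± 0.99 CPM (SD, n = 3), and just passed in edgeR (adjusted p = 0.0474). It did not pass in DESeq2 (adjusted p = 0.19) or limma-voom (adjusted p = 0.0675), and of the fits that left out 1 library it passed only without Eda-/- 2. Its adjusted p was 0.176 without wild-type 3 and 0.204 without Eda-/- 3.

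Tagln (ENSMUSG00000032085.5, chr9:45929619-45936058, minus strand) had 9.23, 9.998 and 16.0 CPM in wild-type and 8.56, 8.72 and 8.19 CPM in Eda-/- libraries. The Eda-/- libraries were close to each other and just below wild-type 1 and 2, so most of the difference in means lay in wild-type 3. Its log2 fold change was -0.47 (SE 0.20, edgeR adjusted p = 0.166), and -0.17 without wild-type 3. Without wild-type 1 it passed (edgeR adjusted p = 0.0499). Exons of Tagln share 1241 bases with the antisense gene Gm48529 and 108 bases with Pcsk7 on the opposite strand, and whether the counting used strand is not given in the sources used here. Gm48529 had at most 18 counts in a library.

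The motor genes came next. Myh11 (ENSMUSG00000018830.8, chr16:14194535-14291372, minus strand) encodes the myosin heavy chain of smooth muscle. It had 46.1, 50.2 and 63.3 CPM in wild-type and 37.5, 44.1 and 40.7 CPM in Eda-/- libraries, with no overlap between the groups. Myh11 fell by 0.38 on the log2 scale (SE 0.11), from 53.2 ± 8.98 to 40.8 ± 3.25 CPM (SD, n = 3), and passed in edgeR (adjusted p = 0.0381) and in DESeq2 (adjusted p = 0.0416). It did not pass in limma-voom (adjusted p = 0.0585), and of the fits that left out 1 library it passed only without wild-type 1; without wild-type 3 it was -0.23 (edgeR adjusted p = 0.149).

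Myl9 (ENSMUSG00000067818.6, chr2:156775420-156781658, plus strand), the regulatory light chain that the kinase phosphorylates, had 8.54, 9.29 and 11.9 CPM in wild-type and 8.03, 9.28 and 7.49 CPM in Eda-/- libraries. The groups overlapped, with Eda-/- 2 level with wild-type 2. The log2 fold change of -0.27 (SE 0.15) did not pass in edgeR (adjusted p = 0.257) and was -0.11 without wild-type 3.

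Mylk (ENSMUSG00000022836.10, chr16:34745210-35002420, plus strand) encodes the myosin light chain kinase. Its level was 31.05, 31.05 and 31.97 CPM in wild-type 1, 2 and 3 and 19.82, 22.12 and 15.67 CPM in Eda-/- 1, 2 and 3. The wild-type libraries were nearly equal, and the highest Eda-/- library was far below all of them. Mylk fell by 0.71 on the log2 scale (SE 0.11, edgeR adjusted p = 0.000414), so that the Eda-/- mean, 19.2 ± 3.27 CPM (SD, n = 3), was 0.61 of the wild-type mean, 31.4 ± 0.53 CPM. Mylk was called in all 17 alternative fits, with log2 fold changes from -0.99 to -0.58 and adjusted p-values up to 0.00382. Antisense genes overlap Mylk. The exonic overlap was 548 bases with E130310I04Rik and 224 bases with Gm21691, and strand use in the counting is not given. No counts were held for E130310I04Rik or Gm21691, so the reads they could add to Mylk were not bounded.

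Oxtr (ENSMUSG00000049112.9, chr6:112473683-112489943, minus strand), the receptor through which oxytocin contracts myoepithelium, was near the limit of detection. The wild-type libraries held 9, 3 and 5 of its counts and the Eda-/- libraries 5, 3 and 0, for a ratio of 0.655 (95% interval 0.245 to 1.60, exact binomial). The groups overlapped and no difference was detectable at this depth. Cav1 (ENSMUSG00000007655.16, chr6:17306335-17341452, plus strand), a coat protein of the caveolae in which contractile cells gather signalling proteins, had 13.4, 13.7 and 13.1 CPM in wild-type and 12.8, 14.6 and 9.75 CPM in Eda-/- libraries. Eda-/- 2 was the highest of the 6 libraries and Eda-/- 3 the lowest. The log2 fold change was -0.12 (SE 0.13, edgeR adjusted p = 0.601), and its sign turned, to 0.04, without Eda-/- 3.

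**Figure D2:**
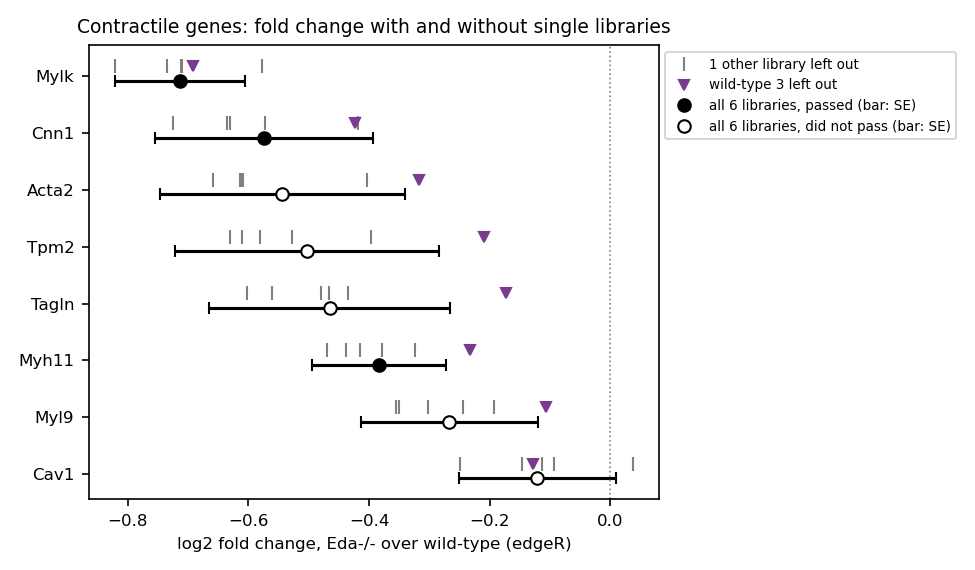
Log2 fold change of each tested contractile gene, Eda-/- over wild-type (horizontal axis, edgeR), as circles with SE, filled where the gene passed; ticks are fits that left out 1 library and triangles those without wild-type 3. Mylk stays between -0.82 and -0.58 in these fits, while Tagln moves from -0.47 to -0.17 and Tpm2 from -0.50 to -0.21 without wild-type 3.

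Levels were then compared between genes per kilobase of exon, with the length taken over all annotated exons of a gene. Counts were per gene and did not tell its transcripts apart, for Mylk as for the others. The levels and their order therefore depend on which transcripts were present. In wild-type glands Acta2 was the most abundant, at 14.4 ± 3.56 CPM per kilobase (SD, n = 3), and its range did not reach that of the next gene. Myl9 (8.54), Myh11 (7.001), Tagln (5.90), Tpm2 (4.18) and Cav1 (3.89) followed, each overlapping the next in range. Mylk, at 2.78, lay below Cav1 and overlapped Cnn1, at 2.56. Actg2, at 0.307, and Oxtr, at 0.074, were far lower, with no overlap. In Eda-/- glands the order had the same first 4 genes, led by Acta2 at 9.88 ± 1.64 CPM per kilobase. Cav1 (3.601) then stood above Tpm2 (2.93) and Cnn1 (1.73) above Mylk (1.71), but the ranges of each of these pairs overlapped.

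Because the size of a change depends on scaling, each gene was also read against a relative found in non-muscle cells, as a ratio of counts within a library (8 pairs; exact permutation test over the 6 libraries, two-sided, for which 0.1 is the smallest p that 3 against 3 allows). The ratio of Acta2 to the cytoplasmic actin Actb was 0.0802, 0.0857 and 0.0923 in wild-type and 0.0643, 0.0793 and 0.0665 in Eda-/- libraries. The ratio of Myh11 to the non-muscle heavy chain Myh9 was 0.28, 0.303 and 0.338 in wild-type and 0.206, 0.253 and 0.252 in Eda-/- libraries. The ratio of Tpm2 to Tpm3 was 0.45, 0.452 and 0.59 in wild-type and 0.397, 0.328 and 0.41 in Eda-/- libraries. These 3 ratios were lower in every Eda-/- library than in any wild-type library, by 0.30, 0.37 and 0.39 on the log2 scale (exact permutation p = 0.1 each, adjusted p = 0.267), which the design cannot call.

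The other 5 pairs overlapped between groups. The log2 difference was -0.09 for Actg2 to Actg1, -0.03 for Myl9 to Myl12a and -0.22 for Tagln to Tagln2. These 3 moved with single libraries: Actg2 to Actg1 was 0.33 without Eda-/- 2, Myl9 to Myl12a was 0.10 without wild-type 3, and Tagln to Tagln2 ran from -0.39 without Eda-/- 3 to 0.00 without Eda-/- 1. The difference was above 0 for Cnn1 to Cnn2 (0.15, and 0.05 without Eda-/- 2) and for Cav1 to Cav2 (0.40), where the denominators were themselves called lower in edgeR: Cnn2, a calponin found outside muscle, fell by 0.75 (adjusted p = 0.0296) and Cav2, the partner of Cav1, fell by 0.52 (adjusted p = 0.0327), a call lost in DESeq2 and with any 1 library left out. Of the other relatives none was called, with log2 fold changes of -0.23 for Actb, -0.42 for Actg1, -0.001 for Myh9, -0.23 for Myl12a, -0.10 for Tpm3 and -0.25 for Tagln2. Counts of Actb, Actg1, Myl12a and Tpm3 are uncertain because 23.5%, 40.2%, 17.7% and 27% of the 31-base words of their transcripts also occur in other genes; for the 10 contractile genes that share was at most 1.39%.

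**Figure D3:**
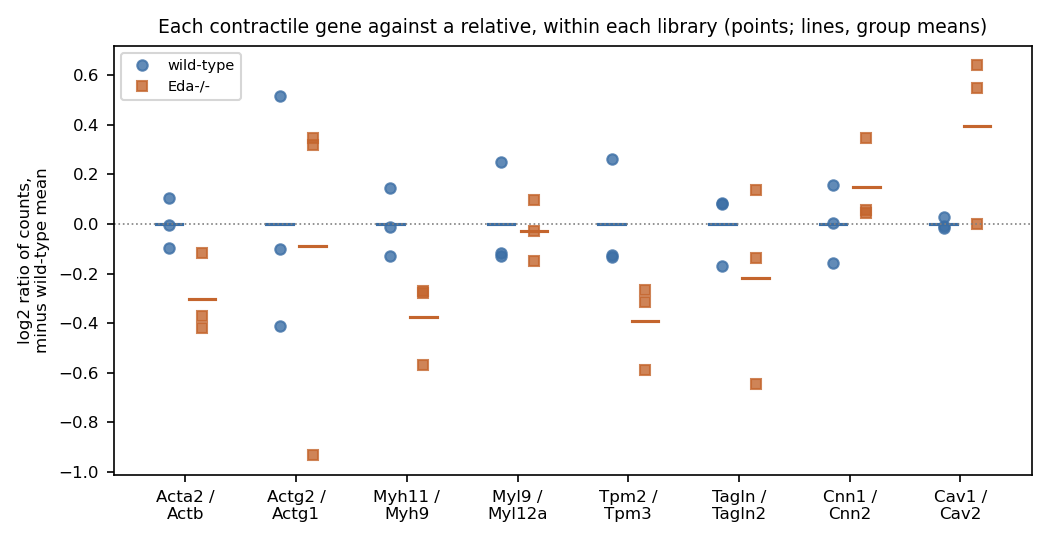
Log2 ratio of counts of each contractile gene to its relative within each library (vertical axis), set to a wild-type mean of 0; circles are wild-type, squares Eda-/- and lines group means (n = 3). The Eda-/- points of Acta2 to Actb, Myh11 to Myh9 and Tpm2 to Tpm3 lie below all wild-type points, and those of the other 5 pairs overlap them.

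Mylk was also set against the other 7 tested genes, a comparison added after the data were seen. All 7 log2 ratios were lower in Eda-/- glands, by 0.15 against Cnn1 to 0.59 against Cav1, and 2 did not overlap between groups. With 1 library left out, the log2 difference ran from -0.27 to -0.08 against Cnn1, from -0.37 to -0.08 against Acta2 and from -0.47 to -0.03 against Tpm2, and from -0.61 to -0.56 against Cav1. The ratio of Mylk to Cav1 was 2.32, 2.27 and 2.44 in wild-type and 1.54, 1.51 and 1.61 in Eda-/- libraries, nearly constant within each group. The ratio of Mylk to its substrate gene Myl9 was 3.64, 3.34 and 2.68 in wild-type and 2.47, 2.38 and 2.09 in Eda-/- libraries. With 3 libraries against 3 no such ratio could be called, and Mylk was singled out after its values were seen, so these ratios are a description.

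Markers of the cells that could carry these transcripts were read beside them. Of 14 tested basal epithelial genes 5 were called lower and none higher in edgeR (median -0.43); none was higher at an unadjusted p under 0.05 or in DESeq2 or limma-voom. Mme, a surface peptidase of myoepithelium (-0.60), Trp63, which encodes p63, the regulator that marks the basal epithelial state (-0.83), the hemidesmosome protein gene Dst (-0.90) and the laminin chain gene Lamb3 (-0.46) were the 4 with the smallest p. Without single libraries the number called lower was 2 to 5; it was 3 without wild-type 3 or Eda-/- 2 and 2 without Eda-/- 3. The basal keratins were not called, with log2 fold changes of -0.03 for Krt5, -0.01 for Krt14 and 0.07 for Krt17. Against the summed counts of these 3 keratins, a ratio added after the data were seen, all 8 contractile genes were lower in Eda-/- glands, by 0.11 (Cav1) to 0.70 (Mylk) on the log2 scale. The keratins were nearly flat, unlike the list median of -0.43, and all 8 genes already had fold changes below 0. This ratio therefore largely restates those fold changes and is not a separate result. Without Eda-/- 1, the log2 difference was 0.02 for Cav1, -0.05 for Myl9 and -0.13 for Myh11; without Eda-/- 2 it was -0.34, -0.42 and -0.51. The groups did not overlap for Acta2, Tpm2, Cnn1 and Mylk (smallest adjusted p 0.2, exact permutation). These genes also did not overlap in CPM, with every Eda-/- library below every wild-type library, as for 16.2% of all tested genes.

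Pericyte and vascular muscle markers had 9 tested genes of 16, and none was called in either direction by edgeR, DESeq2 or limma-voom (median -0.01). At an unadjusted p under 0.05 in edgeR, 1 was lower and 1 higher. Scaling by library totals called 2 lower, and the fit without Eda-/- 3 called 1 higher. With a minimum count of 30 the median of the 5 genes kept was 0.158. Rgs5, a pericyte gene, had 9.54 ± 1.23 CPM in wild-type and 10.7 ± 2.03 CPM in Eda-/- glands, and Pdgfrb, the pericyte receptor for PDGF, 6.25 ± 0.71 and 5.80 ± 0.75 CPM (SD, n = 3). The summed level of the list was 31.4 to 37.9 CPM in wild-type and 35.7 to 36.8 CPM in Eda-/- libraries, so the ranges overlapped. No listed marker was at 0 in all libraries of a group, and 7 had under 10 counts in every library. Against this sum, again added after the data were seen, all 8 contractile genes were lower in Eda-/- glands, by 0.21 (Cav1) to 0.80 (Mylk) on the log2 scale. There was no overlap for 6 genes (smallest adjusted p 0.133, exact permutation). They were the same 6 genes that did not overlap in CPM, an arrangement found for 16.2% of all tested genes. Because the sum differed little between groups, this ratio largely restates the fold changes of the contractile genes and is not a separate result. Without Eda-/- 3 the difference for Cav1 was -0.06, and without wild-type 3 that for Tagln was -0.33.

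Of 12 tested fibroblast genes 11 had a log2 fold change below 0 (median -0.38). In edgeR 3 were called lower (Pdgfra, Dcn and Col1a2, at -0.52, -0.42 and -0.62) and none higher. None was higher at an unadjusted p under 0.05, nor called higher in DESeq2 or limma-voom. The summed level was 218 to 278.5 CPM in wild-type and 176.1 to 195.5 CPM in Eda-/- libraries. Of 13 tested endothelial genes 2 were called lower (Vwf, -1.01, and Flt1, -0.51) and 1 higher (Plvap, 0.53). DESeq2 called 1 lower and none higher, and none was called higher under any fit that left out 1 library. The summed level was 68.3 to 84.0 CPM in wild-type and 57.3 to 65.7 CPM in Eda-/- libraries. Of 3 tested adipocyte genes 2 were called higher (Fabp4, 1.98, and Cfd, 1.43), and 1 had a log2 fold change below 0. The number called higher was 1 in DESeq2 and limma-voom and without wild-type 1 or 3 or Eda-/- 1 or 2. With a minimum count of 30 only 1 adipocyte gene was tested, at -0.125, and it was not called. Of the 8 listed, 5 had under 10 counts in every library. The summed level of the list was 5.07 to 7.12 CPM in wild-type and 8.81 to 11.2 CPM in Eda-/- libraries. Skeletal muscle markers summed to 1.12 to 2.37 CPM in wild-type and 0.624 to 1.40 CPM in Eda-/- libraries; 9 of 10 had under 10 counts in every library, 2 were at 0 in every Eda-/- library, and none reached the level needed for a test. The part of these cells in the fall of the contractile genes was not tested.

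The labelled tissue was seen in its secretory genes. Markers of acinar and luminal cells summed to 3636 to 4777 CPM in wild-type and 4044 to 5340 CPM in Eda-/- libraries, led by the tear peroxidase gene Lpo. Of 9 tested, none was called lower in edgeR and 2 higher, the secretory transcription factor gene Bhlha15 (0.36) and the calcium release channel gene Itpr3 (0.43). The list median was -0.09. DESeq2 and limma-voom also called none of this list lower, and 1 was lower at an unadjusted p under 0.05 in edgeR. The counts were 2 lower and 3 higher with a GC and length trend removed, 4 lower and 0 higher with library totals, and 1 lower and 3 higher without Eda-/- 2.

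Wild-type 3 stood above the other wild-type libraries in several of these lists. The median difference, on the log2 scale, between wild-type 3 and the mean of wild-type 1 and 2 was 0.40 for the contractile genes. It was 0.24 for basal, 0.21 for endothelial, 0.19 for fibroblast and 0.18 for pericyte and vascular muscle markers. Without wild-type 3, the list medians were -0.28 for basal, -0.02 for endothelial, -0.27 for fibroblast and 0.01 for pericyte and vascular muscle markers.

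Of 23 tested further smooth muscle genes 4 were called lower in edgeR and 1 higher (median -0.12). Those lower were Synpo2, an actin-bundling protein gene (-1.14), Vcl, the vinculin gene of cell adhesions (-0.40), Cnn2 (-0.75) and Nexn, an actin-binding protein gene (-0.73). Of these, Cnn2 is also found outside muscle and is the relative set against Cnn1 above. The member of this list called higher, Cnn3, an acidic calponin gene, was at 0.24. It was not called under upper quartile or library total scaling, with no filter on low counts, or without any 1 wild-type library or Eda-/- 3. Without Eda-/- 2 or Eda-/- 3 the number called lower was 2.

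Synpo2 had 5.18, 6.76 and 6.74 CPM in wild-type and 2.53, 3.56 and 2.42 CPM in Eda-/- libraries, and Vcl had 23.6, 23.2 and 23.8 CPM in wild-type and 17.7, 17.2 and 18.5 CPM in Eda-/- libraries. Neither gene overlapped between groups, and the wild-type 3 library of Vcl was level with the others. A list of 11 tested relatives of the contractile genes did not hold Cnn2, which was counted with the smooth muscle genes above. In it 2 were called lower, Tpm4 (-0.91), a tropomyosin of non-muscle cells, and Cav2. The 1 called higher was the non-muscle heavy chain gene Myh14 (0.80). The list median was -0.23, and 9 of the 11 had a log2 fold change below 0. Myh14 had 12.3, 9.35 and 9.89 CPM in wild-type and 20.3, 17.5 and 17.1 CPM in Eda-/- libraries, opposite in direction to Myh11. The number called lower in this list of relatives was 1 or 0 with any 1 library left out.

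In the list of serum response factor and its cofactors 0 of 6 tested genes were called by edgeR, DESeq2 or limma-voom (median -0.18), and 1 was lower at an unadjusted p under 0.05 in edgeR. Of the 6, 5 had a log2 fold change below 0, among them the cofactor gene Mrtfb (-0.06), Elk4 (-0.29) and Srf (-0.05). With upper quartile scaling, and also without Eda-/- 2, 1 gene of this list was called lower. Among 7 tested genes of caveolae Cav2 was called lower in edgeR (median 0.04), and none in DESeq2 or with any 1 library left out. Among 15 tested receptors and calcium signalling genes Itpr3 was the gene called, higher, and the muscarinic receptor gene of tear secretion, Chrm3, was at -0.13 (edgeR adjusted p = 0.457).

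**Figure D4:**
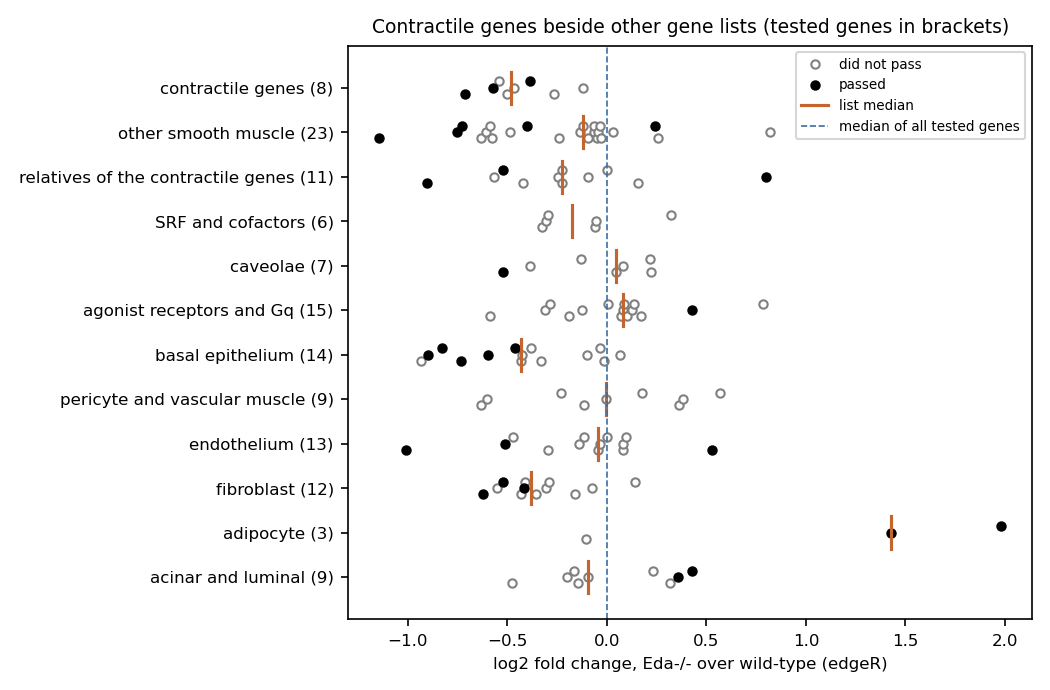
Log2 fold change, Eda-/- over wild-type (horizontal axis, edgeR), of each tested gene of the contractile genes and of 11 other lists, filled where the gene passed, with list medians as bars and the median of all tested genes as a dashed line. The contractile genes lie wholly below 0 with a median of -0.48. The median is -0.43 for the basal epithelial genes, -0.38 for the fibroblast genes and -0.01 for the pericyte and vascular muscle markers.

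The members lie on several chromosomes, and their neighbours were read for a local pattern. Of 209 tested genes starting within 1 Mb of a member, counted for each member, 9 were called lower and 14 higher, or 11% against 13.1% of all tested genes. Beside Myh11 1 of 13 neighbours was called, higher. Beside Cnn1 5 of 43 were called, 1 lower and 4 higher. Beside Mylk 0 of 9 were called, and beside Acta2 3 of 17, all lower.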

How the data were processed

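Per the labels' protocols, total RNA of frozen glands was isolated with TRIzol and columns, depleted of ribosomal RNA and made into strand-specific libraries. The authors deposited 1 table of raw counts of reads per gene. Per the submitters' processing notes, reads were handled with bcl2fastq, Trimmomatic, STAR and featureCounts, DESeq2 was used, and the build was GRCm38.p5; versions, annotation and the strand setting are not stated in those notes or labels.

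Symbols, coordinates and exon lengths came from GENCODE M21 by gene identifier (50462 matched, 224 did not). The test was that of edgeR 4.0.16 under R 4.3.3 (TMM scaling, filterByExpr with a minimum count of 10, robust quasi-likelihood fit, genotype alone, all 6 libraries), with Benjamini-Hochberg adjustment over 13178 genes and a threshold of 0.05. SE was obtained as the size of the log2 fold change over the square root of F. CPM are TMM-scaled. Alternatives were DESeq2 1.42.0, limma-voom (limma 3.58.1), other scalings and filters, a fit that was not robust, leaving out the 20 most abundant genes, removing a trend on GC content and length, a replicate block and each library left out. The code was tested on simulated counts.

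The members and the lists were chosen with earlier results of these data known. The text names all 10 members, Eda, each relative paired with a member, and from each other list up to 4 called members by p, or up to 2 by level where none was called; Srf, Krt5, Krt14, Krt17, Chrm3 and Lpo were chosen after their values were seen. No pair of replicate libraries agreed within sampling noise. Of the lists chosen, 1 is not reported here. Sequences are from RefSeq (GRCm38.p6), the same primary assembly.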

Additional observations from a re-analysis of the deposited data

How the results depend on the processing

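Mylk kept its direction and its call in all 17 alternative fits; Myh11 was called in 10 of 17 and Cnn1 in 8 of 17, with highest adjusted p-values of 0.164 and 0.204. Acta2, Tagln and Tpm2 were each called in 3 of 17, and Myl9 and Cav1 in 1 of 17. The number of contractile genes called lower was 1 with limma-voom, 8 with library totals, 6 with no filter on low counts, and 1 to 3 with 1 library left out; none was called higher in any of these fits. Scaling by library totals moved the median of all tested genes to -0.28 and the median of the contractile genes to -0.77. It turned the split over all genes to 4365 lower and 246 higher. DESeq2 called 593 genes lower, and fits without 1 library called 599 to 834 lower. Cav1 ran from -0.249 to 0.037 with 1 library left out, and its sign turned without Eda-/- 3; the cause was not tested.

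Libraries with the same replicate number did not deviate together (r = -0.035, 0.021 and -0.094 across genes). The labels name no pairing, but such correlations cannot exclude a shared litter or day. With a replicate block 3 contractile genes were called lower, Tpm2, Myh11 and Mylk, and 896 genes lower and 712 higher in all. Counts of 23 and 12 for Actg2 and 17 and 8 for Oxtr, summed over a group, limit what can be said of these genes.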
